A study of Homo sapiens with 4 samples.

Results

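The genes described here encode the matrix metalloproteinases (MMPs), the ADAM and ADAMTS proteases, and their inhibitors, the TIMPs and RECK. They were taken from the count table by symbol (MMP, ADAM, ADAMTS or TIMP followed by a number, plus RECK), which found 70 of 39634 genes. The cells were BEAS-2B, an established line from human bronchial epithelium, in N2B27 medium. Cells carried either a short hairpin RNA against Fer (shFer, 2 libraries, labelled Fer knockdown) or a control short hairpin RNA (shControl, 2 libraries), and polyadenylated RNA was sequenced. The labels number the replicates without saying that they were separate cultures; a p-value therefore reflects only how these samples spread, which may be technical.

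Metalloproteinases of these families hold a zinc ion in the active site and cut proteins outside the cell. MMPs degrade collagens and other matrix proteins, either as secreted enzymes or anchored to the cell membrane; ADAMs are mostly membrane proteins that shed the outer parts of receptors, ligands and adhesion molecules; ADAMTSs are secreted and process procollagens, proteoglycans and blood proteins. TIMPs bind the active site and block it, and RECK is a membrane-anchored inhibitor of MMPs. In epithelium such proteases are known for basement membrane turnover, migration and the release of growth factors.

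The catalytic site is the feature that most of the proteases share and the inhibitors lack, so its coding sequence is shown for genes on which the results turn. The search looked in frame for the zinc-binding motif of these enzymes, a histidine and a glutamate followed by spaced histidines with a glycine (or asparagine) before the last. The longest coding sequence of each gene in GENCODE release 29 was read on its own strand. In capitals are the codons of the histidines, the glutamate and the glycine or asparagine.
MMP2: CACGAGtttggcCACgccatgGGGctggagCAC
MMP19: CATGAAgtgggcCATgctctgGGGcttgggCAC
MMP14: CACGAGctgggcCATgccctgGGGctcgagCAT
ADAM19: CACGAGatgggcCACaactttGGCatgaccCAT
ADAM10: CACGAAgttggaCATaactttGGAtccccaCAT
ADAM17: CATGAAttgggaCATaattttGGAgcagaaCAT
ADAMTS13: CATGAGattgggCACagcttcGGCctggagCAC
ADAMTS15: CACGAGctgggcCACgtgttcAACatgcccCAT

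The motif began at codon 403 of 660 in MMP2, at codon 239 of 582 in MMP14 and at codon 224 of 1427 in ADAMTS13. It was found in 53 of the 67 members with a coding sequence, against 65 of 19502 coding genes in all (0.333%). All 16 secreted MMPs and all 7 membrane MMPs held it, as did the 12 ADAMs listed as active proteases and 18 ADAMTSs (6 hyalectanases, 3 procollagen N-proteinases and 9 others). ADAMTS8 was the ADAMTS without a match. No match was found in the 8 ADAMs listed as inactive or in the 5 inhibitors. The glycine was replaced by asparagine in 4 members, ADAMTS1, ADAMTS4, ADAMTS9 and ADAMTS15. MMP23A, ADAM5 and ADAM6 are annotated as pseudogenes and were not searched.

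Library totals were 21422976 and 25169713 counts in libraries labelled Fer knockdown, against 21772587 and 22857051 counts in control. The 70 genes took between 0.342% and 0.352% of the counts of a library. FER itself had 17.8 and 20.1 CPM (counts scaled to library size) in libraries labelled Fer knockdown, against 16.3 and 21.2 CPM in control. Its log2 fold change of 0.02 ± 0.17 (SE; 95% interval -0.37 to 0.40) had an adjusted p of 0.976, and it ran from -0.16 to 0.19 with each library left out in turn. FER mRNA thus does not bear out the knockdown label, and every direction given here refers to the libraries as labelled. Epithelial keratins were abundant (KRT8 averaged 1843 CPM and KRT18 826 CPM), while 5 of 14 epithelial markers, KRT5, KRT14, TP63, GRHL2 and ESRP1, stayed below 1 CPM. Mitochondrial transcripts took 9.62% and 9.37% of counts in libraries labelled Fer knockdown, against 16.9% and 19.4% in control. Replicates of the label Fer knockdown lay closer together than those of control: the median absolute log2 difference over the tested members was 0.132 in libraries labelled Fer knockdown and 0.272 in control.

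Of the 70 genes, 44 had enough counts to be tested and 26 did not. A gene was called at an adjusted p of 0.05 or less in edgeR's quasi-likelihood test, with Benjamini-Hochberg adjustment over the 15336 genes tested. MMP2, lower in libraries labelled Fer knockdown, was the 1 member called; over all tested genes 99 were called (0.646%), and those called lower made up 0.365%. At an unadjusted p of 0.05 or less, 6 members were higher and 9 lower in libraries labelled Fer knockdown, 15 of 44 (34.1%), beside a share of 17.7% over all tested genes. Both of those libraries lay above both controls for 11 members and below both for 12, beside 25.8% above and 23.4% below over all tested genes. These counts of 11 and 12 are near the background, unlike the share at an unadjusted p of 0.05 or less. That share was not tested against the background, and the background was not matched for expression level. The median log2 fold change was 0.03 over the tested members and 0.01 over all tested genes.

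MMP2 was called under every other way of processing the 4 libraries that was tried. It was again the 1 member called with the 5 CPM filter (1.06% of all tested genes called), with limma-voom (1.16%), with DESeq2 size factors (0.861%) and with mitochondrial genes left out (0.498%). DESeq2 called 5 members, ADAM19, ADAMTS13, ADAMTS15, MMP2 and TIMP3 (3.78% of all 15336 genes). For MMP23A, MMP25 and TIMP4 there was no DESeq2 result, so these genes cannot be read as tested and not called. Scaling by library totals alone called ADAMTS13, ADAMTS15 and MMP2 (2.89%), and leaving out the filter called these 3 with MMP25, TIMP3 and TIMP4 (4.14%). With the replicate number as a block, ADAM19, ADAMTS13, ADAMTS15, MMP2, MMP25 and TIMP3 were called (6.46%). The labels do not say that libraries with the same number were paired.

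**Figure D1:**
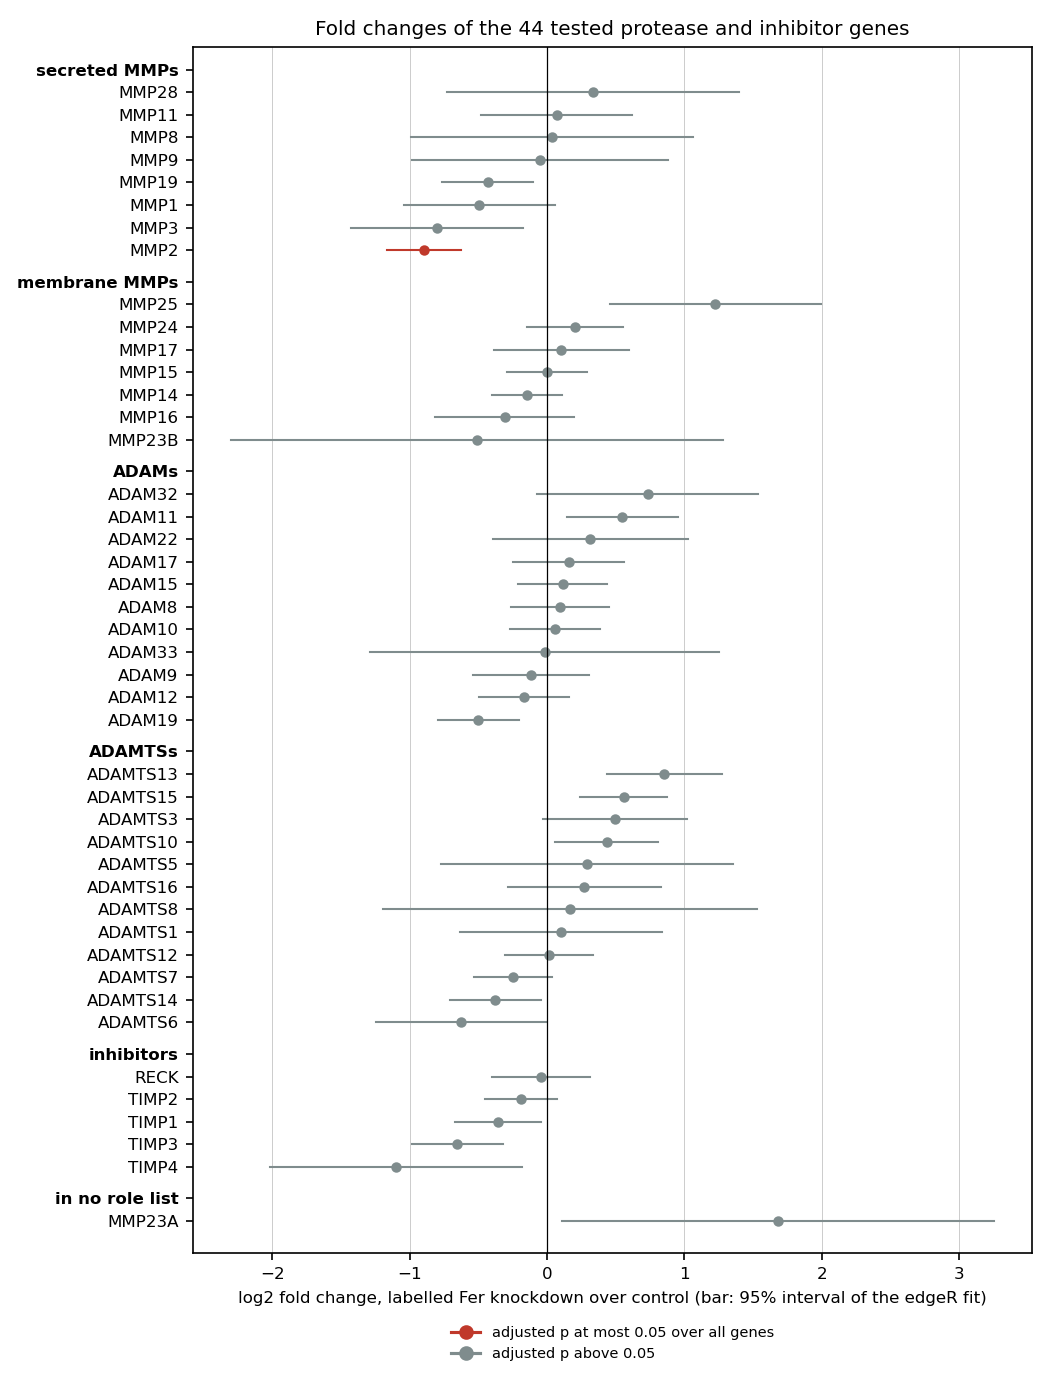
Log2 fold changes (labelled Fer knockdown over control) of the 44 tested members, grouped by role, with the 95% interval of the edgeR fit as bars. MMP2 at -0.90 is the 1 member with an adjusted p of 0.05 or less; the 5 inhibitors lie at or left of -0.04, of which RECK turns positive when libraries are scaled by their totals alone, and the members with the fewest counts have the widest bars.

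Levels of different genes are compared here as CPM per kilobase of the gene length given in the count table. TIMP1 was the most abundant member at 270.3 and 291 CPM per kilobase in libraries labelled Fer knockdown, against 406 and 313 in control. MMP14 followed with 146 and 153 CPM per kilobase in libraries labelled Fer knockdown, against 174 and 157 in control. TIMP2 came next at 98.3 and 108 CPM per kilobase in libraries labelled Fer knockdown, against 111 and 124 in control. These 3 kept that order in each of the 4 libraries. ADAM15 (47.4 to 63.4 CPM per kilobase over the 4 libraries) and MMP2 (26.3 to 53.0) overlapped, as did MMP2 and ADAM9 (23.1 to 36.5). ADAM9 exceeded ADAM12 (20.4 to 27.1) in each library, while ADAMTS7 (20.5 to 27.8) had no fixed place relative to either of them. MMP15 stood below them at 13.7 to 14.96 CPM per kilobase. In all, 9 members averaged at least 10 CPM per kilobase and 27 at least 1.

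**Figure D2:**
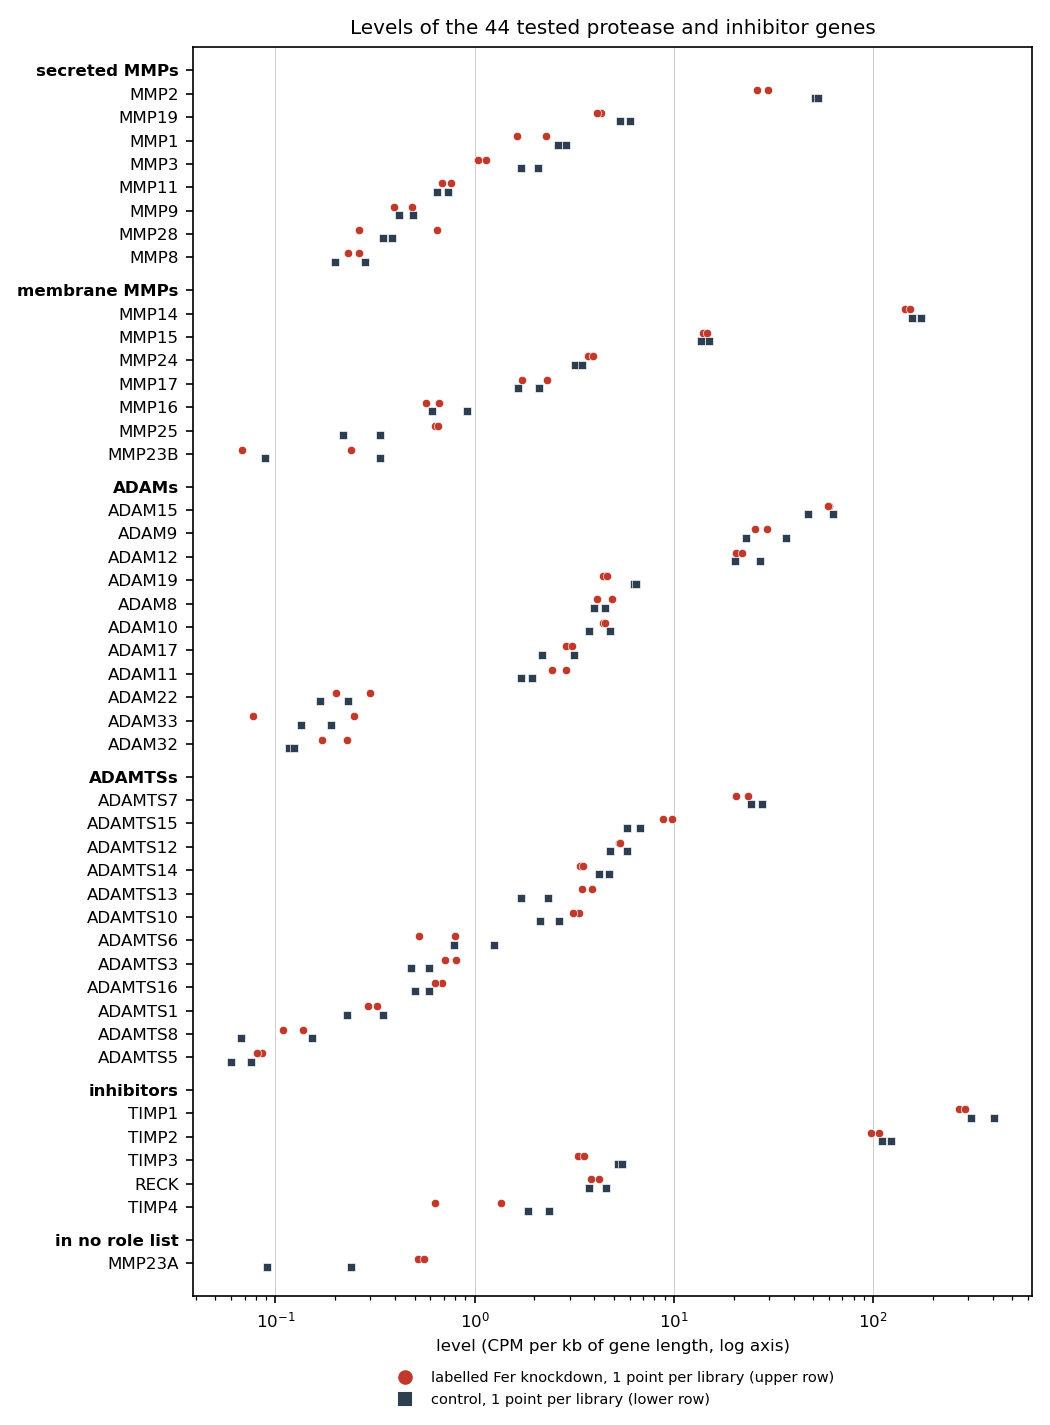
Level of each tested member in each library (CPM per kilobase of gene length, log axis), with the libraries labelled Fer knockdown in the upper row and control in the lower row of each gene. TIMP1, MMP14 and TIMP2 lie near or above 100, and the 2 libraries labelled Fer knockdown lie left of both controls for MMP2 and TIMP3.

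Among the secreted MMPs, 8 of 16 were tested and 1 was called, beside 0.646% of all tested genes. MMP2 (ENSG00000087245, chromosome 16), gelatinase A, degrades denatured collagen and collagen of basement membranes. It had 139.7 and 124 CPM in libraries labelled Fer knockdown, against 240.4 and 249 CPM in control. Both libraries of the label lay far below both controls, and the groups did not overlap. The means were 132 ± 11.3 CPM in libraries labelled Fer knockdown and 245 ± 6.37 CPM in control (SD, n = 2 each). MMP2 had a log2 fold change of -0.90 ± 0.12 (SE; 95% interval -1.17 to -0.62; adjusted p = 0.0182), a level 1.86-fold lower. Exons of AC007336.3 on the same strand cover 3.53% of its exonic bases, so reads from those bases cannot be assigned to either gene.

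The MMP2 fold change stayed between -0.99 and -0.81 with any 1 library left out. The call was lost without replicate 1 of the label Fer knockdown (adjusted p = 0.0568) and without replicate 2 of that label (adjusted p = 0.320), where the spread rests on the control pair alone. With mitochondrial genes left out before scaling, MMP2 had a log2 fold change of -0.90. Summed mesenchymal markers were also lower, at 1397 and 1358 CPM in libraries labelled Fer knockdown, against 2150 and 1961 CPM in control. VIM and THY1 made up most of that sum, with log2 fold changes of -0.59 and -0.77, and COL1A1 was at -0.46. The list did not move as a whole: PDGFRB and POSTN overlapped between the groups (0.01 and -0.04), and COL3A1, below 1 CPM on average, was at 1.39. Of the 11 markers, 5 averaged at least 1 CPM, DCN and LUM had 0 counts, and 1, THY1, was called; their part in the MMP2 result was not tested. Fewer cells of a type and less RNA per cell cannot be told apart in bulk RNA.

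The other secreted MMPs stood at much lower levels. MMP19, a broad-range secreted enzyme, had 20.2 and 19.3 CPM in libraries labelled Fer knockdown, against 24.99 and 28.2 CPM in control, and its log2 fold change was -0.43 ± 0.15 (adjusted p = 0.178). MMP3, stromelysin, had 1.94 and 2.11 CPM in libraries labelled Fer knockdown, against 3.18 and 3.87 CPM in control, with a log2 fold change of -0.80 ± 0.28 (adjusted p = 0.183). MMP1, interstitial collagenase, had 4.49 and 3.24 CPM in libraries labelled Fer knockdown, against 5.67 and 5.17 CPM in control, with a log2 fold change of -0.49 ± 0.25 (adjusted p = 0.332). The groups did not overlap for these 3 genes, but none passed the test. With MMP2, 4 of the 8 tested secreted MMPs lay below both controls in both libraries labelled Fer knockdown, beside 23.4% of all tested genes. Exons of TMEM198B on the other strand cover 17.4% of MMP19, and those of WTAPP1 cover 7.61% of MMP1 and 1.56% of MMP3. For MMP8, MMP9, MMP11 and MMP28 the groups overlapped, with log2 fold changes of -0.05 to 0.34 and at most 104 counts in a library.

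MMP1, MMP3 and MMP8 sit in a run of 9 MMP genes on chromosome 11, which spans 435 kb in GENCODE release 29 (MMP7, MMP20, MMP27, MMP8, MMP10, MMP1, MMP3, MMP12 and MMP13). The other 6 had too few counts to be tested. Together the 9 genes gave 184 and 175 counts in libraries labelled Fer knockdown, against 212 and 221 counts in control.

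All 7 membrane MMPs were tested and 0 were called, with 1 at an unadjusted p of 0.05 or less, beside 17.7% of all tested genes. MMP14, the membrane collagenase that activates MMP2 precursor at the cell surface with the help of TIMP2, had 650.3 and 684 CPM in libraries labelled Fer knockdown, against 774 and 699 CPM in control. Its log2 fold change was -0.14 ± 0.11 (95% interval -0.40 to 0.11; adjusted p = 0.559), and it was 0.02 when libraries were scaled by their totals alone, a scaling that put the median of all tested genes at 0.18. MMP15, another transmembrane MMP, had 59.1 and 62.2 CPM in libraries labelled Fer knockdown, against 63.3 and 57.7 CPM in control, with a 95% interval of the log2 fold change from -0.29 to 0.29. The groups overlapped for MMP15 and lay next to each other for MMP14.

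MMP25, which is held by a lipid anchor and is best known from leukocytes, had 2.69 and 2.79 CPM in libraries labelled Fer knockdown, against 1.42 and 0.922 CPM in control. Its log2 fold change was 1.23 ± 0.35, the largest among the membrane MMPs, and did not pass the test (adjusted p = 0.117). The level rested on 61 and 74 counts in libraries labelled Fer knockdown, against 29 and 20 counts in control, and exons of MMP25-AS1 on the other strand cover 35.2% of the gene. Leukocyte markers summed to 22.9 and 22.0 CPM in libraries labelled Fer knockdown, against 28.6 and 21.9 CPM in control. CD14 (18.55 CPM on average) and ITGAM (4.89 CPM) made up most of that sum, with log2 fold changes of -0.27 and 0.35. They were the 2 of 7 listed markers that averaged at least 1 CPM, and 0 of the list were called. PTPRC stayed below 1 CPM, and CD3E had 0 counts in all 4 libraries. MMP24 had 16.3 and 17.3 CPM in libraries labelled Fer knockdown, against 13.99 and 15.1 CPM in control, a log2 fold change of 0.21 ± 0.16 (adjusted p = 0.538), and shares 21.8% of its exonic bases with other genes, MMP24OS among them. For MMP16, MMP17 and MMP23B the groups overlapped. MMP23A, a pseudogene copy of MMP23B, had 12 and 15 counts in libraries labelled Fer knockdown, against 5 and 2 counts in control (log2 fold change 1.68 ± 0.70, adjusted p = 0.251). Reads of such near-identical copies may be split between them in counting, so both values are uncertain.

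Of the 20 ADAMs, 11 were tested and 0 were called. At an unadjusted p of 0.05 or less 1 was higher and 1 lower, beside 17.7% of all tested genes in either direction. ADAM19, a sheddase known for cutting neuregulin, had 34.0 and 35.8 CPM in libraries labelled Fer knockdown, against 48.6 and 49.9 CPM in control. Its log2 fold change was -0.50 ± 0.13 (95% interval -0.79 to -0.20; adjusted p = 0.106). ADAM11, which lacks the catalytic motif, had 11.8 and 13.9 CPM in libraries labelled Fer knockdown, against 9.34 and 8.26 CPM in control, with a log2 fold change of 0.55 ± 0.18 (adjusted p = 0.166). Neither gene's groups overlapped, as for the 23.4% of all tested genes below both controls and the 25.8% above both. The other 2 tested ADAMs without an active protease, ADAM22 and ADAM32, had log2 fold changes of 0.32 and 0.73 (adjusted p = 0.653 and 0.323). Their 95% intervals span 0, the groups overlapped for ADAM22, and ADAM32 had at most 61 counts in a library.

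The abundant sheddases did not separate the groups. ADAM15, which carries an integrin-binding motif, had 397 and 393 CPM in libraries labelled Fer knockdown, against 418 and 312 CPM in control. ADAM9 had 180.1 and 206 CPM in libraries labelled Fer knockdown, against 162 and 256 CPM in control. ADAM12, known for cutting insulin-like growth factor binding proteins, had 202 and 216 CPM in libraries labelled Fer knockdown, against 201 and 268 CPM in control. In each of these 3 the control pair spanned the libraries labelled Fer knockdown; the log2 fold changes were 0.12 ± 0.14, -0.12 ± 0.19 and -0.16 ± 0.15. ADAM10, the main sheddase of Notch and cadherins, had 70.4 and 72.0 CPM in libraries labelled Fer knockdown, against 60.3 and 76.4 CPM in control (95% interval of the log2 fold change -0.27 to 0.38). ADAM17, which releases tumour necrosis factor and epidermal growth factor ligands, had 31.0 and 33.1 CPM in libraries labelled Fer knockdown, against 23.5 and 33.9 CPM in control (95% interval of the log2 fold change -0.25 to 0.56), with 13.6% of its exonic bases overlapped by other genes, IAH1 among them. Both intervals span 0.

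Of the 19 ADAMTSs, 12 were tested and 0 were called; 3 were higher and 2 lower at an unadjusted p of 0.05 or less, beside 17.7% of all tested genes in either direction. Both libraries labelled Fer knockdown lay above both controls for 6 of the 12 and below both for 2, beside 25.8% and 23.4% of all tested genes, and the median log2 fold change was 0.22. ADAMTS13, the protease that cuts von Willebrand factor, had 22.2 and 19.7 CPM in libraries labelled Fer knockdown, against 13.4 and 9.78 CPM in control. The groups did not overlap, and the log2 fold change was 0.86 ± 0.19 (95% interval 0.44 to 1.27; adjusted p = 0.0672). ADAMTS15, a hyalectanase that cuts the proteoglycans versican and aggrecan, had 55.4 and 50.1 CPM in libraries labelled Fer knockdown, against 38.5 and 33.1 CPM in control. Here too the groups lay apart, with a log2 fold change of 0.56 ± 0.14 (95% interval 0.24 to 0.88; adjusted p = 0.0960).

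ADAMTS10, which acts on fibrillin microfibrils, had 19.2 and 17.8 CPM in libraries labelled Fer knockdown, against 15.1 and 12.2 CPM in control (log2 fold change 0.43 ± 0.17, adjusted p = 0.222). Its closest relative, ADAMTS6, had 6.87 and 4.52 CPM in libraries labelled Fer knockdown, against 6.75 and 10.8 CPM in control (log2 fold change -0.63 ± 0.28, adjusted p = 0.276). ADAMTS14, a procollagen N-proteinase, had 18.9 and 19.4 CPM in libraries labelled Fer knockdown, against 26.2 and 23.4 CPM in control (log2 fold change -0.37 ± 0.15, adjusted p = 0.232). ADAMTS10 and ADAMTS6 thus had fold changes of opposite sign, with overlapping groups in ADAMTS6. ADAMTS7, which cuts cartilage oligomeric matrix protein, was the most abundant of the family at 182 and 159 CPM in libraries labelled Fer knockdown, against 216 and 190.0 CPM in control (log2 fold change -0.25 ± 0.13, adjusted p = 0.353). Copies of ADAMTS7 exist in the genome, and reads shared with them make its level uncertain. ADAMTS12 had 51.1 and 51.8 CPM in libraries labelled Fer knockdown, against 45.8 and 55.9 CPM in control, and the groups overlapped.

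The 5 inhibitors were all tested and 0 were called, with 0 higher and 3 lower at an unadjusted p of 0.05 or less, beside 17.7% of all tested genes in either direction. For TIMP1, TIMP2, TIMP3 and TIMP4, 4 of the 5, both libraries labelled Fer knockdown lay below both controls, as they did for 23.4% of all tested genes. The median log2 fold change of the 5 was -0.35, beside 0.07 over the 39 other tested members (the protease families, with their inactive members and MMP23A) and 0.01 over all tested genes. It was -0.19 with library totals alone, where all tested genes had a median of 0.18.

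TIMP3 (ENSG00000100234, chromosome 22), which binds to the matrix and also inhibits ADAM17 and ADAMTSs, had 15.2 and 16.2 CPM in libraries labelled Fer knockdown, against 24.3 and 25.2 CPM in control. The means were 15.7 ± 0.701 CPM in libraries labelled Fer knockdown and 24.7 ± 0.651 CPM in control (SD, n = 2 each). With a log2 fold change of -0.65 ± 0.15 (95% interval -0.98 to -0.32; adjusted p = 0.0759), TIMP3 missed the threshold although replicates lay close together. TIMP1 (ENSG00000102265, chromosome X), a broad inhibitor of secreted MMPs, had 391 and 421 CPM in libraries labelled Fer knockdown, against 586 and 452 CPM in control. Its log2 fold change was -0.35 ± 0.14 (95% interval -0.67 to -0.04; adjusted p = 0.226), and the control replicates differed more from each other than control replicate 2 did from either library labelled Fer knockdown.

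TIMP2, which both inhibits MMP2 and takes part in its activation, had 554 and 606 CPM in libraries labelled Fer knockdown, against 625 and 696 CPM in control (log2 fold change -0.19 ± 0.12, adjusted p = 0.445). TIMP4 had 1.63 and 0.753 CPM in libraries labelled Fer knockdown, against 2.84 and 2.21 CPM in control (log2 fold change -1.10 ± 0.41, adjusted p = 0.207). Other genes overlap 10.0% of the exonic bases of TIMP2, and SYN2 on the other strand overlaps 10.3% of those of TIMP4, which had at most 58 counts in a library. RECK had 21.4 and 23.5 CPM in libraries labelled Fer knockdown, against 20.8 and 25.4 CPM in control, and its groups overlapped. Its log2 fold change was -0.04 ± 0.16 (95% interval -0.40 to 0.32), and it turned to 0.12 with library totals alone.

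Secreted proteases, membrane proteases and inhibitors were then compared by their summed levels, as a description without a test. The secreted MMPs summed to 39.4 and 35.6 CPM per kilobase in libraries labelled Fer knockdown, against 63.2 and 65.7 in control. MMP2 made up 75.4% and 73.9% of that sum in libraries labelled Fer knockdown, against 80.8% and 80.7% in control. Without MMP2 the sum was 9.69 and 9.30 CPM per kilobase in libraries labelled Fer knockdown, against 12.1 and 12.7 in control. The sum of the secreted MMPs was thus lower with and without its main gene.

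The membrane MMPs summed to 167 and 175 CPM per kilobase in libraries labelled Fer knockdown, against 195 and 177 in control. MMP14 supplied between 87.1% and 89.1% of this in every library. The ratio of the mean sums was -0.12 on the log2 scale and turned to 0.05 with library totals alone. TIMPs summed to 373 and 403 CPM per kilobase in libraries labelled Fer knockdown, against 524 and 444 in control. TIMP1 supplied 72.4% and 72.3% of the TIMP sum in libraries labelled Fer knockdown, against 77.4% and 70.5% in control. ADAMs summed to 126 and 131 CPM per kilobase in libraries labelled Fer knockdown, against 126 and 132 in control, and ADAMTSs to 52.1 and 47.3, against 51.4 and 47.2 in control. The sums of these last 2 families overlapped between the groups.

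Ratios within a library do not depend on how libraries are scaled. Secreted MMPs over TIMPs stood at 0.106 and 0.0883 in libraries labelled Fer knockdown, against 0.121 and 0.148 in control. Membrane MMPs over TIMPs stood at 0.449 and 0.434 in libraries labelled Fer knockdown, against 0.372 and 0.399 in control. The first ratio was lower and the second higher in both libraries labelled Fer knockdown, and all MMPs over TIMPs overlapped, at 0.554 and 0.523 in libraries labelled Fer knockdown, against 0.493 and 0.547 in control.

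MMP2 was lower relative to its activation partners, MMP14 and TIMP2, whose own log2 fold changes were -0.14 and -0.19. These ratios rest on the same MMP2 counts and are not separate support for its lower level. MMP2 over MMP14 was 0.204 and 0.171 in libraries labelled Fer knockdown, against 0.294 and 0.338 in control. MMP2 over TIMP2 was 0.302 and 0.244 in libraries labelled Fer knockdown, against 0.460 and 0.429 in control. MMP14 over TIMP2 overlapped, at 1.48 and 1.43 in libraries labelled Fer knockdown, against 1.57 and 1.27 in control. For the sheddases and the TIMP that inhibits them, ADAM17 over TIMP3 was 0.872 and 0.874 in libraries labelled Fer knockdown, against 0.415 and 0.578 in control. ADAM10 over TIMP3 was 1.33 and 1.28 in libraries labelled Fer knockdown, against 0.715 and 0.873 in control. Both ratios were higher in libraries labelled Fer knockdown, while ADAM10 and ADAM17 overlapped between the groups. The 2 ratios rest on the same TIMP3 counts, and TIMP3 itself did not pass the test (adjusted p = 0.0759). They are not separate support for a shift between sheddases and inhibitor.

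**Figure D3:**
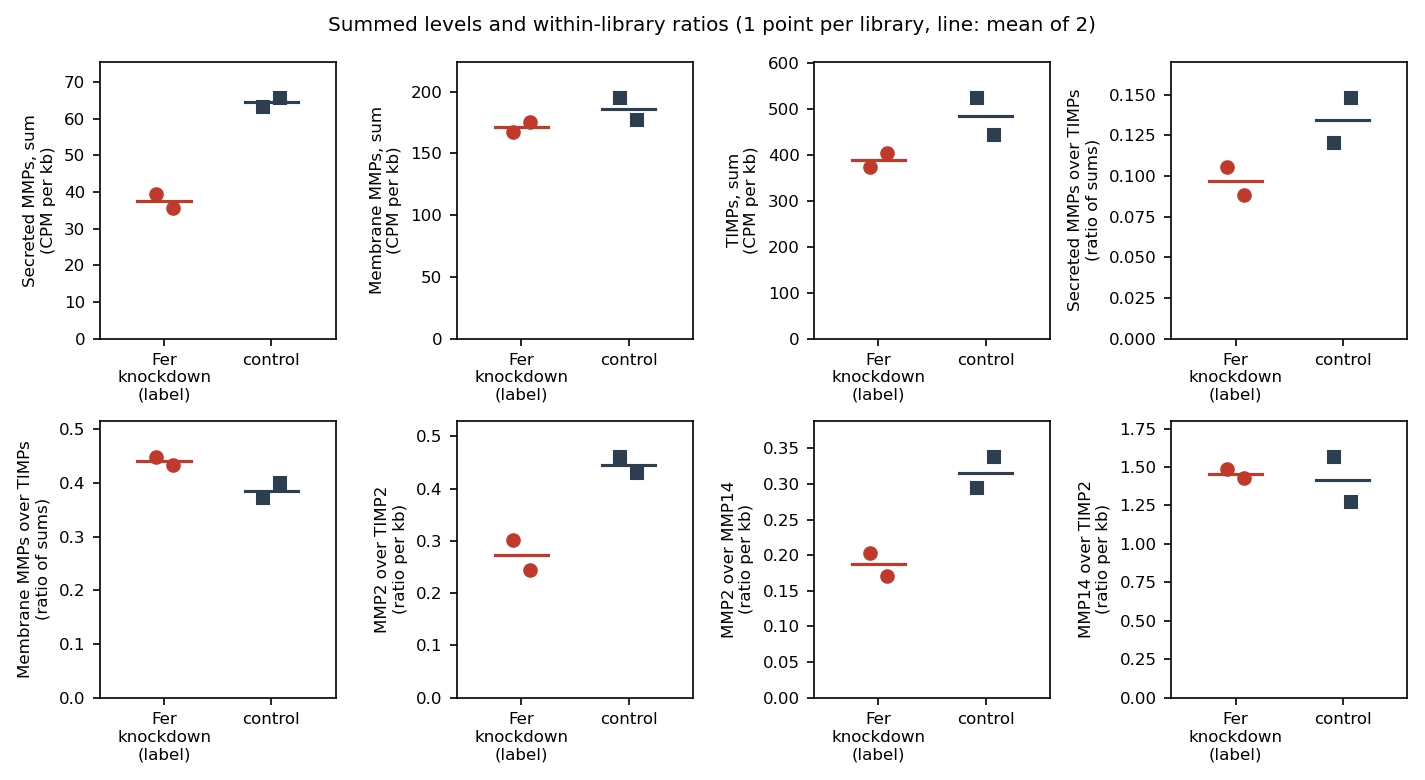
Summed levels (CPM per kilobase) and within-library ratios for secreted MMPs, membrane MMPs, TIMPs and single pairs of genes, with 1 point per library, the mean of 2 as a line and axes from 0. The libraries labelled Fer knockdown lie below both controls in the secreted MMP sum (39.4 and 35.6, against 63.2 and 65.7) and in MMP2 over TIMP2, above both in membrane MMPs over TIMPs, and among them in MMP14 over TIMP2; the membrane MMP sum, lower here, is not lower with library totals alone.

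Other genes of the pathway were counted in 5 lists. Over all tested genes, edgeR called 0.646%, limma-voom 1.16% and DESeq2 3.78%. Among 12 tested convertases, inducers and receptors of metalloproteinases, 0 were called by edgeR or limma-voom and 2, SPOCK1 and CD44, by DESeq2. At an unadjusted p of 0.05 or less in edgeR 1 was higher and 4 were lower, beside 17.7% of all tested genes in either direction. The median log2 fold change was -0.09. Both libraries labelled Fer knockdown lay below both controls for 6 and above both for 3, beside 23.4% and 25.8% of all tested genes. SPOCK1, a secreted proteoglycan known as a regulator of MMP activation, had 46.8 and 50.9 CPM in libraries labelled Fer knockdown, against 70.2 and 104 CPM in control (log2 fold change -0.83 ± 0.18, adjusted p = 0.0660). CD44, a hyaluronan receptor that docks MMPs at the cell surface, had 171 and 169.5 CPM in libraries labelled Fer knockdown, against 227 and 246 CPM in control (log2 fold change -0.47 ± 0.12, adjusted p = 0.0893). Neither passed edgeR's test, nor did CAV1, the caveolar coat protein (log2 fold change -0.38 ± 0.13, adjusted p = 0.161).

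Among 11 tested regulators of ADAM10 and ADAM17, 0 were called by edgeR or limma-voom and 1, FRMD8, by DESeq2. In edgeR 1 was higher and 1 lower at an unadjusted p of 0.05 or less, beside 17.7% of all tested genes in either direction. The median log2 fold change was -0.04. Both libraries labelled Fer knockdown lay below both controls for 3 and above both for 4, beside 23.4% and 25.8% of all tested genes. FRMD8, which stabilises the ADAM17 complex at the cell surface, had 127 and 124 CPM in libraries labelled Fer knockdown, against 94.3 and 80.5 CPM in control (log2 fold change 0.52 ± 0.13, adjusted p = 0.0924). SFRP1, a Wnt antagonist that also inhibits ADAM10, and TSPAN17, a tetraspanin that escorts ADAM10, had log2 fold changes of -0.37 and 0.31 (adjusted p = 0.253 and 0.315).

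Of 25 tested shed substrates of ADAMs, 1 was called by edgeR, beside 0.646% of all tested genes. Limma-voom called 2, L1CAM and SDC4, and DESeq2 called 3, these 2 and CD44, which is also on this list. At an unadjusted p of 0.05 or less 5 were higher and 2 lower, beside 17.7% of all tested genes in either direction. The median log2 fold change was -0.01. Both libraries labelled Fer knockdown lay below both controls for 7 and above both for 6, beside 23.4% and 25.8% of all tested genes. L1CAM (chromosome X), an adhesion molecule shed by ADAM10, had 190.1 and 184 CPM in libraries labelled Fer knockdown, against 295 and 299 CPM in control. L1CAM had a log2 fold change of -0.67 ± 0.11 (adjusted p = 0.0360), and its groups lay far apart. The call was lost without replicate 1 (adjusted p = 0.428) or replicate 2 (adjusted p = 0.656) of the label Fer knockdown, and other genes overlap 11% of its exonic bases. SDC4, a heparan sulfate proteoglycan shed from the cell surface, had 279 and 308 CPM in libraries labelled Fer knockdown, against 207 and 171 CPM in control (log2 fold change 0.63 ± 0.13, adjusted p = 0.0564), and was called by limma-voom and DESeq2.

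Of 18 tested matrix substrates, 0 were called by edgeR or limma-voom and 2, VCAN and COL1A1, by DESeq2. At an unadjusted p of 0.05 or less 2 were higher and 2 lower, beside 17.7% of all tested genes in either direction. The median log2 fold change was -0.14. Both libraries labelled Fer knockdown lay below both controls for 7 and above both for 3, beside 23.4% and 25.8% of all tested genes. VCAN, the proteoglycan versican, had 18.2 and 19.4 CPM in libraries labelled Fer knockdown, against 26.0 and 42.2 CPM in control (log2 fold change -0.86 ± 0.21, adjusted p = 0.0901). COL1A1, a fibrillar collagen chain, had a log2 fold change of -0.46 ± 0.13 (adjusted p = 0.112), and COL7A1, the collagen of anchoring fibrils, one of 0.35 ± 0.13 (adjusted p = 0.199). Of 11 tested ADAMTS-like and astacin-type genes, 0 were called by edgeR, limma-voom or DESeq2, and the median was -0.13. At an unadjusted p of 0.05 or less 0 were higher and 2 lower, beside the same 17.7% of all tested genes. Of these 11 genes, 4 lay below both controls and 2 above both, beside the same 23.4% and 25.8%. ADAMTSL5, ADAMTSL3 and ADAMTSL4, relatives of the ADAMTSs without a protease domain, had log2 fold changes of -0.60, -0.55 and -0.33 (adjusted p = 0.0960, 0.141 and 0.292).

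How far each value rests on 1 library was read from fits with each library left out. Without replicate 1 or without replicate 2 of the label Fer knockdown, 0 members were called, where 0.713% and 0.352% of all tested genes were called. Without control replicate 1, 17 members were called, 6 higher and 11 lower, beside 29.5% of all tested genes. Without control replicate 2, 13 were called, 4 higher and 9 lower, beside 20.6%. These last 2 fits take the spread from the libraries labelled Fer knockdown alone, the pair with the smaller differences.

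MMP2, MMP19, TIMP3, ADAM19, ADAMTS13 and ADAMTS15 kept their direction in all 4 of these fits. Their groups did not overlap to begin with, so leaving out 1 library could hardly turn the sign, and this adds no support. ADAM9 was called in opposite directions, with a log2 fold change of -0.41 without control replicate 1 and 0.23 without control replicate 2 (adjusted p = 5.45e-08 and 0.0138). ADAM12, ADAM15, ADAMTS12, MMP15 and RECK also changed sign in at least 1 fit. TIMP1 was at -0.16 without control replicate 1 and at -0.55 without control replicate 2, so its size depends on which control is used. MMP14 was called without control replicate 2 alone, at -0.24 (adjusted p = 0.000957).

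**Figure D4:**
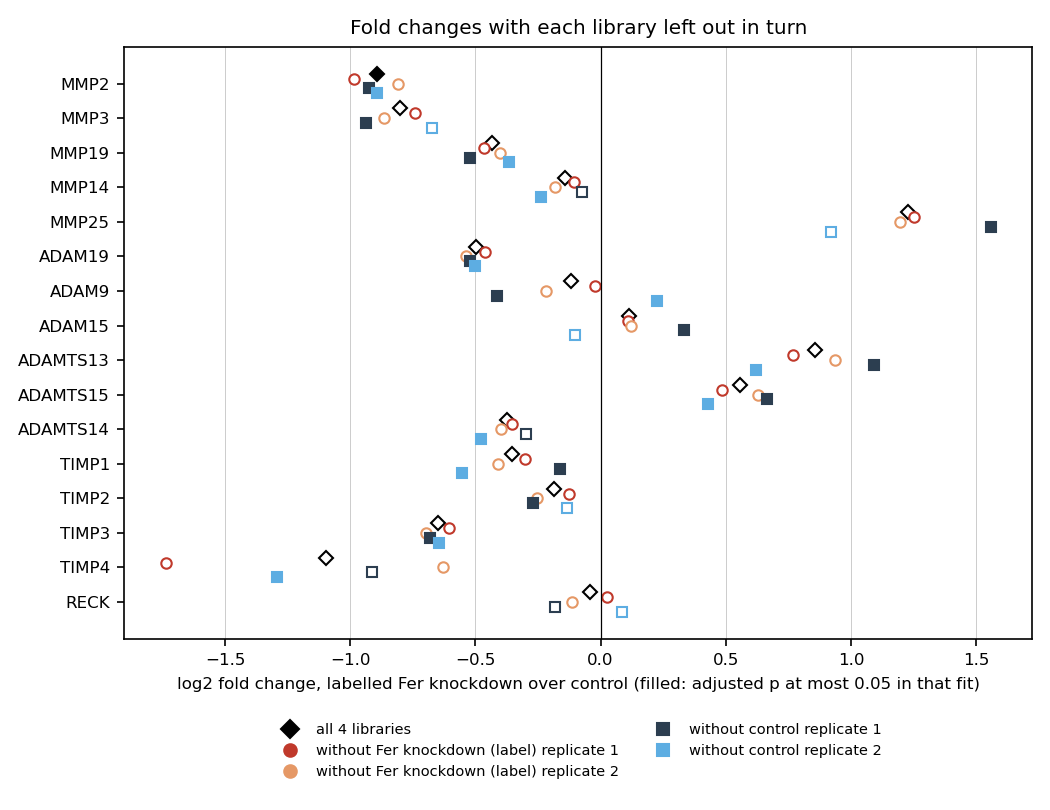
Log2 fold changes (labelled Fer knockdown over control) of 16 members with all 4 libraries and with each library left out in turn; filled symbols mark an adjusted p of 0.05 or less in that fit. MMP2 stays between -0.99 and -0.81, ADAM9 lies at -0.41 without control replicate 1 and at 0.23 without control replicate 2, and TIMP4, with few counts, moves between -1.74 and -0.63.

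The 26 members that could not be tested were near or below detection. No library had a count for 10 of them: ADAM2, ADAM6, ADAM7, ADAM18, ADAM28, ADAM30, ADAMTS19, ADAMTS20, MMP20 and MMP26. A count of 0 allows up to 3 counts in a library, so these genes were not detectable at this depth. Another 10 had between 1 and 10 counts over all 4 libraries, MMP7, MMP12 and MMP13 among them. The other 6, ADAM21, ADAMTS2, ADAMTS4, ADAMTS17, MMP10 and MMP27, had at most 34 counts in all, the total of ADAMTS2.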

How the data were processed

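Polyadenylated RNA of 4 BEAS-2B libraries was sequenced, with a TruSeq RNA kit per the labels. The authors deposited raw read counts per gene with symbols and gene lengths, per the file headers. The submitters' processing notes name HISAT2, featureCounts, DESeq2, hg19 and mm10, without roles; counting strand and annotation: not given in the sources used here. Of the table's rows, 1 held no values. The column of Fer knockdown replicate 1 carries a shortened name and was matched as the other library of that label.

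The test was run on counts with edgeR 4.0.16 (R 4.3.3; filterByExpr defaults, TMM factors, quasi-likelihood test, two-sided, no block, 2 residual degrees of freedom), with Benjamini-Hochberg adjustment over 15336 genes at 0.05. CPM are on the TMM scale. SEs come from the fold change and test statistic. Gene lengths lay within 5% of the exonic bases in GENCODE release 29 for 61 of 70 members, at ratios of 0.724 to 1.79 over all. Its build is not hg19, so no coordinates are printed, and overlap is a percent of exonic bases on either strand. The 2 libraries of each label differed beyond sampling noise, so none was counted as a duplicate. Steps were tested on simulated data. Limits for a count of 0 cover counting error only.

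Members and lists were chosen with earlier results of these data known. Members named are all TIMPs and RECK, any member called, the 15 tested members with the smallest p and the 3 most abundant per kilobase in each of 5 role lists (26 in all); for each pathway list, the 3 genes with the smallest p. Other members were named for completeness after their values were seen. Alternatives were DESeq2 1.42.0, limma-voom (limma 3.58.1), DESeq2 size factors, library totals alone, no filter, a filter of 5 CPM in 2 libraries, mitochondrial genes left out, the replicate number as a block, and each library left out; their use on pathway genes was added after seeing the data.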

Additional observations from a re-analysis of the deposited data

How the results depend on the processing

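Of 304 values of the 26 named members under the alternatives, 246 kept their direction and side of the threshold, 41 passed it, 2 lost it (MMP2 without replicate 1 or without replicate 2 of the label Fer knockdown) and 15 changed sign. The number of members called was 1 with DESeq2 size factors, limma-voom, the 5 CPM filter and mitochondrial genes left out; it was 5 with DESeq2, 3 with library totals alone, 6 without a filter, 6 with the replicate block and 0 to 17 with a library left out. Over all genes 99 were called, and 580 with DESeq2, 443 with library totals alone (396 higher and 47 lower, against 43 and 56), 178 with limma-voom, 993 without a filter, 990 with the replicate block and 56 to 4734 with a library left out. The labels do not say whether libraries with the same replicate number were paired. Same-numbered differences correlated at 0.037 over 15336 genes, which cannot settle it.

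With library totals alone, which put the median of all genes at 0.18, role medians were -0.078 (secreted MMPs), 0.17 (membrane MMPs), 0.26 (ADAMs), 0.38 (ADAMTSs) and -0.19 (inhibitors), and log2 ratios of summed levels were -0.62, 0.045, 0.16, 0.18 and -0.15 in that order. The 5 CPM filter gave medians of -0.68 (2 secreted MMPs) and -0.29 (4 inhibitors), and no filter gave -0.33 for secreted MMPs. With a library left out, medians ran from -0.34 to -0.19 for secreted MMPs, -0.11 to 0.16 for membrane MMPs, -0.087 to 0.23 for ADAMs, 0.14 to 0.32 for ADAMTSs and -0.55 to -0.27 for inhibitors. Summed ratios ran from -0.21 to -0.054 for membrane MMPs and -0.45 to -0.20 for inhibitors.

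FER, at 0.02, ran from -0.16 to 0.19 with a library left out. Signs turned for ADAM9 (0.045), MMP14 (0.021) and RECK (0.12) with library totals alone, and for MMP15 with DESeq2 and with DESeq2 size factors (-0.0073 each), the 5 CPM filter (-0.013) and mitochondrial genes left out (-0.0075). With a library left out, ADAM12 ranged from -0.36 to 0.034, ADAM15 from -0.10 to 0.33, ADAM9 from -0.41 to 0.23, ADAMTS12 from -0.13 to 0.15, MMP15 from -0.086 to 0.065 and RECK from -0.18 to 0.086. The cause was not tested. The members with the fewest counts had the widest intervals.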
